A study of Mus musculus with 36 samples.

Results

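This comparison set the miRNAs of prostates from both Elac2 mutant lines on the TRAMP background against those of WT-TRAMP prostates at 10 weeks of age. It used 6 mutant libraries, 3 from KO-TRAMP mice and 3 from A537T-TRAMP mice, and 3 WT-TRAMP libraries. The members were the miRNAs with a mean of at least 1 count per 1e6 miRNA reads (CPM) over these 9 libraries, which were 491 of the 1963 miRNAs listed. The limit fell between miR-297abc-3p and miR-3962, whose means were 1.001 and 0.9994 CPM.

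All mice were age-matched and littermate-matched males that carried 1 copy of the TRAMP transgene. It expresses the SV40 T antigens in prostatic epithelium from the probasin promoter. The KO and A537T lines were made on the background labelled C56NL/6N. They were bred with homozygous TRAMP mice, whose strain the text of the study does not give. WT-TRAMP mice had the unaltered Elac2 gene. KO-TRAMP mice were homozygous for an Elac2 allele that loses an exon where a probasin-driven Cre is active, so stroma, vessels and immune cells of the same lobes were not targeted. A537T-TRAMP mice carried the threonine variant of ELAC2 on both alleles in all tissues. The RNA came from the ventral and lateral lobes. The whole study held 36 libraries in 12 groups of 3, with and without TRAMP at 10 and 30 weeks.

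The columns of the deposited tables carried library numbers but no group names, so the group of each library rests on the table that held it. Elac2 RNA is not measured by miRNA sequencing and gave no check of the genotypes. Libraries 1 to 3 were WT-TRAMP, libraries 4 to 6 A537T-TRAMP and libraries 7 to 9 KO-TRAMP. Totals ran from 4544257 to 10491199 reads in WT-TRAMP and from 6397370 to 13014486 reads in the mutants, and an exact two-sided permutation test of the totals gave p = 0.333. Of the members, 487 had a read in all 9 libraries. In bulk tissue, fewer cells of a type and less miRNA per cell cannot be told apart.

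ELAC2 is the RNase Z that trims the 3′ ends of precursor tRNAs in the nucleus and in mitochondria. MiRNAs are made by a different route, in which Drosha and Dicer cut a hairpin to a duplex and one strand, the 5p or 3p arm, is loaded into Argonaute. Bases 2 to 8 of the loaded strand, the seed, pair with target mRNAs, so miRNAs with the same seed share many predicted targets. Some miRNA genes lie in long clusters that are transcribed together, and the imprinted Dlk1-Dio3 cluster, expressed from the maternal chromosome, is among the longest in the mouse.

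The sequences on which the results turn are given first, 5′ to 3′ from RefSeq (GRCm38.p6), with the seed in capitals. RefSeq held the mature sequence of 425 of the 491 members. The first set comes from the Dlk1-Dio3 cluster, which held 6 of the 8 miRNAs that lay below WT-TRAMP in all 6 mutant libraries under both scalings used here, and all 8 miRNAs whose mutant effect differed with age. In it miR-379-3p and miR-411-3p share a seed, and no other pair shown does.
miR-382-5p: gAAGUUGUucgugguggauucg
miR-495-3p: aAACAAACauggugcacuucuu
miR-337-5p: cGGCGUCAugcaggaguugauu
miR-329-3p: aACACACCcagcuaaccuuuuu
miR-379-3p: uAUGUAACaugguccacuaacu
miR-411-3p: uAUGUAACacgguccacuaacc
miR-127-3p: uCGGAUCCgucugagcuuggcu
miR-1193-3p: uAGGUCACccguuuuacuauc

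The second set holds 2 of the let-7 miRNAs, 10 of which share a seed among the members, the pair miR-7a-5p and miR-7b-5p with one seed, and 3 miRNAs that stood out in single comparisons.
let-7c-5p: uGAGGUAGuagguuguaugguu
let-7f-5p: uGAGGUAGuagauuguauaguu
miR-7a-5p: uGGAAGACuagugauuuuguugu
miR-7b-5p: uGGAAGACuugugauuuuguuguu
miR-129-5p: cUUUUUGCggucugggcuugc
miR-135a-5p: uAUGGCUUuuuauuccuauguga
miR-5121: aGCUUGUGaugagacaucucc

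The miRNA pool of these prostates was dominated by a few species. miR-148a-3p took 186376, 240703 and 275828 CPM in WT-TRAMP. It took 302061, 247060 and 248512 CPM in A537T-TRAMP and 313900, 225711 and 242912 CPM in KO-TRAMP. The groups overlapped, and the difference was 0.18 ± 0.16 on the log2 scale (SE; limma adjusted p = 0.653).

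Next in abundance, miR-143-3p, which marks smooth muscle and fibroblasts, ranged from 82642 to 102656 CPM in WT-TRAMP and from 69928 to 214225 CPM in the mutants. The oncomiR miR-21a-5p ranged from 98702 to 126449 CPM in WT-TRAMP and from 48585 to 122181 CPM in the mutants. miR-26a-5p lay between 42919 and 55330 CPM in all 9 libraries. The mutant libraries spread wider than WT-TRAMP for miR-143-3p and miR-21a-5p and overlapped WT-TRAMP for all 3. The epithelial list, 13 members that include the miR-200 family, summed to 61903 to 90775 CPM in the mutants and 81315 to 94764 CPM in WT-TRAMP.

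The first question was whether any miRNA differed between the mutants and WT-TRAMP. With limma on log2(CPM + 1), 0 of the 491 members passed an adjusted p of 0.05 (0%), and the smallest adjusted p was 0.585. edgeR and DESeq2 on the recovered reads also called 0 miRNAs. At an unadjusted p under 0.05, limma gave 1 higher (0.204%) and 29 lower members (5.91%), edgeR gave 29 in both directions and DESeq2 gave 30. Differences were small, under 0.5 log2 in either direction for 400 members, and the median half-width of the 95% confidence interval was 0.58.

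The direction of these small differences depended on the scaling. Each library was divided by its total, and the median log2 fold change of all members was then -0.19. With TMM, which centres the bulk of the miRNAs, the median was -0.03, with 260 members below 0 where library totals gave 357, and the unadjusted calls were 8 higher (1.63%) and 10 lower (2.04%). Values below are from library totals and should be read against the median of -0.19.

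The clearest pattern was a lower level of the Dlk1-Dio3 miRNAs in the mutants. The cluster lies at chr12:109563692-109747960 (GRCm38), from Mir770 to Mir3072. The list used here was set by miRNA name and held 97 mature miRNAs, 55 of them members. By position in that region, 110 mature miRNAs were listed, 53 of them members. Of the 55, 54 had a fold change below 0, with a median of -0.56 against -0.19 for all members. With TMM the same count was 54 and the median was -0.44 against -0.03. None of the 55 passed an adjusted p of 0.05 in limma. At an unadjusted p under 0.05, 10 were lower (29 of all 491 members, 5.91%), or 6 with TMM (10 of 491, 2.04%). Clusters of this kind are transcribed together and all 55 come from the same 9 libraries, so these counts are not independent observations. The list was also chosen with earlier results of these data known.

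For 8 of the 55, every mutant value was under every WT-TRAMP value. Among the 491 members this held for 25 (5.09%), and for 0 in the other direction (0%). With TMM, 8 members lay below (1.63%), 6 of them in this cluster, and 5 lay above (1.02%).

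**Figure D1:**
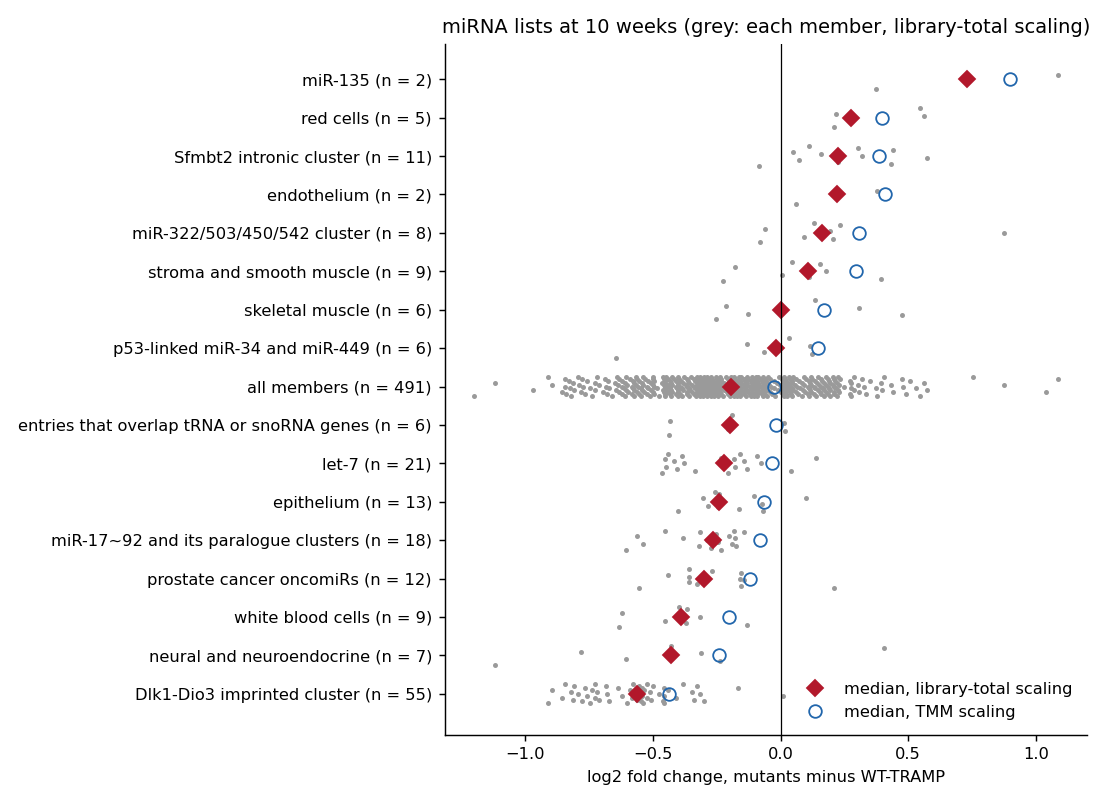
Log2 fold change (mutants minus WT-TRAMP, horizontal axis) of the members of each list, with list medians under 2 scalings. The median of the Dlk1-Dio3 cluster is lowest under both, at -0.56 and -0.44, while the medians of let-7 and of all members move to -0.03 with TMM.

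Of the cluster, miR-382-5p, encoded in an exon of the noncoding gene Mirg at chr12:109733771-109733846 (plus strand), had 49.5, 35.3 and 43.8 CPM in WT-TRAMP. It had 23, 26.3 and 26.2 CPM in A537T-TRAMP and 14.2, 34.4 and 19.9 CPM in KO-TRAMP. All 6 mutant libraries were below WT-TRAMP, although KO-TRAMP library 8 missed the lowest WT-TRAMP library by little. The log2 fold change was -0.85 ± 0.27 (SE; limma adjusted p = 0.585).

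miR-495-3p, whose hairpin lies at chr12:109718754-109718816 outside any other annotated gene, had 21.6, 19.3 and 22.11 CPM in WT-TRAMP. Its levels were 12.5, 11.8 and 17.1 CPM in A537T-TRAMP and 5.87, 15.7 and 6.57 CPM in KO-TRAMP. The groups did not overlap, and the fold change was -0.90 ± 0.30 log2 (limma adjusted p = 0.585). KO-TRAMP library 8 was again the KO-TRAMP library nearest to WT-TRAMP.

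miR-337-5p, from chr12:109585789-109585885 near the start of the cluster, had 35.4, 29.4 and 35.2 CPM in WT-TRAMP. It had 17.6, 19 and 23.3 CPM in A537T-TRAMP and 13.1, 28.2 and 19.1 CPM in KO-TRAMP, and its fold change was -0.74 ± 0.25 log2 (limma adjusted p = 0.585). The order of the libraries was that of miR-382-5p and miR-495-3p within KO-TRAMP, with library 7 lowest and library 8 highest.

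The most abundant member of the cluster, miR-127-3p, lies at chr12:109592846-109592915, opposite an exon of the retrotransposon-derived gene Rtl1, whose mRNA it is known to cut. It had 879, 861 and 1151 CPM in WT-TRAMP, 631, 587 and 872 CPM in A537T-TRAMP and 413, 1070 and 552 CPM in KO-TRAMP. Here library 8 lay inside the WT-TRAMP range and the groups overlapped. The fold change was -0.54 ± 0.28 log2 (limma adjusted p = 0.585).

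The difference was not limited to one stretch of the cluster. Of the 53 members placed in the region by position, which include miR-1193-3p from outside the list, 17 lie in the first 80 kb. These 17 had a median of -0.56, and the 36 others also had a median of -0.56. Summed over the 97 listed miRNAs, the cluster took 2445, 2234 and 2864 CPM in WT-TRAMP, 1685, 1593 and 2288 CPM in A537T-TRAMP and 1035, 2615 and 1484 CPM in KO-TRAMP. Library 8 and, by less, A537T-TRAMP library 6 thus reached the WT-TRAMP range. Of the 55 members, 54 were below the lowest WT-TRAMP library in library 7, 50 in library 9, 43 in library 5 and 35 in library 4, but 18 in library 6 and 12 in library 8. These counts are from library totals, and the same counts over all members were not made. TMM raised the values of libraries 7, 9, 5 and 4 and lowered those of the other libraries, WT-TRAMP included. How much of each count belongs to the cluster and how much to the scaling was therefore not tested.

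**Figure D2:**
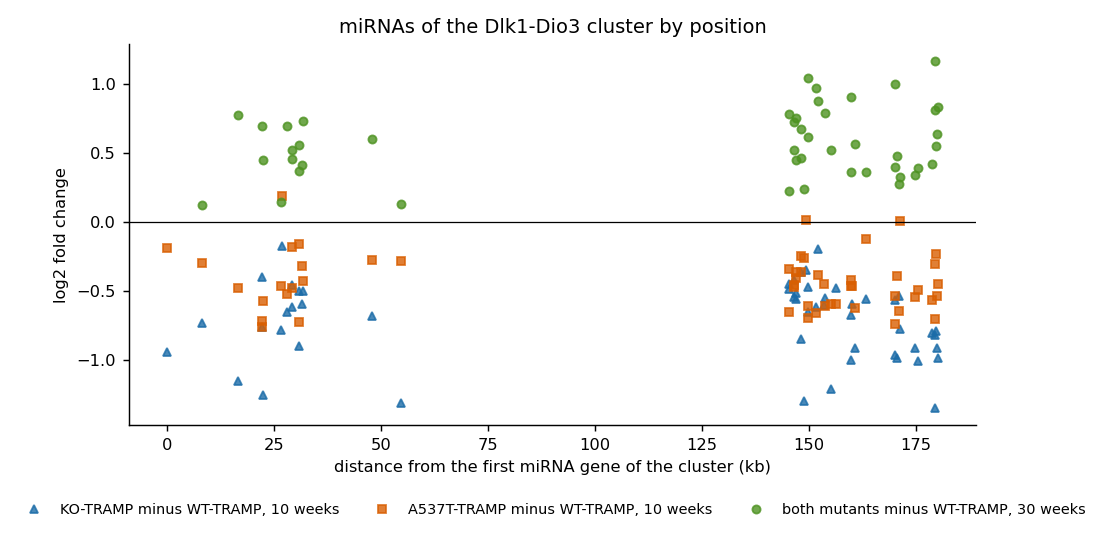
Log2 fold change of each Dlk1-Dio3 miRNA (vertical axis) against its distance from the first miRNA gene in kb, for KO-TRAMP and A537T-TRAMP at 10 weeks and for both mutants at 30 weeks. The 10-week points lie almost all below 0 along both stretches, with a median of -0.65 for KO-TRAMP and -0.46 for A537T-TRAMP, and all 30-week points lie above 0.

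Outside the cluster, the smallest p belonged to miR-5121, with 19.8, 23.2 and 12.7 CPM in WT-TRAMP. It had 8.41, 11.6 and 10.8 CPM in A537T-TRAMP and 8.16, 9.80 and 9.38 CPM in KO-TRAMP. No mutant library reached WT-TRAMP library 3, and the fold change was -0.84 ± 0.23 log2 (limma adjusted p = 0.585). Its hairpin, at chr7:45126918-45126991 on the minus strand, overlaps the small nucleolar RNA Snord33 and the ribosomal protein gene Rpl13a on the same strand, so reads from these RNAs cannot be told apart from it.

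Other members with no overlap differed by less. miR-15b-3p, the passenger arm of a cell-cycle miRNA in an intron of Smc4 (chr3:69009772-69009835), had 42.7 ± 6.90 CPM in WT-TRAMP and 29.7 ± 3.75 CPM in the mutants (SD). miR-204-3p, from an intron of Trpm3 (chr19:22750605-22750672), had 13.4 ± 1.75 and 8.55 ± 2.02 CPM. miR-1843a-5p, which overlaps Scarna3b in an intron of Dcaf5 (chr12:80391613-80391677), had 261 ± 11.8 and 212 ± 10.6 CPM. Their log2 fold changes were -0.51 ± 0.19, -0.61 ± 0.24 and -0.30 ± 0.14 (SE; limma adjusted p = 0.585 for each). With TMM the same 3 differed by -0.32, -0.44 and -0.11, and their groups overlapped.

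**Figure D3:**
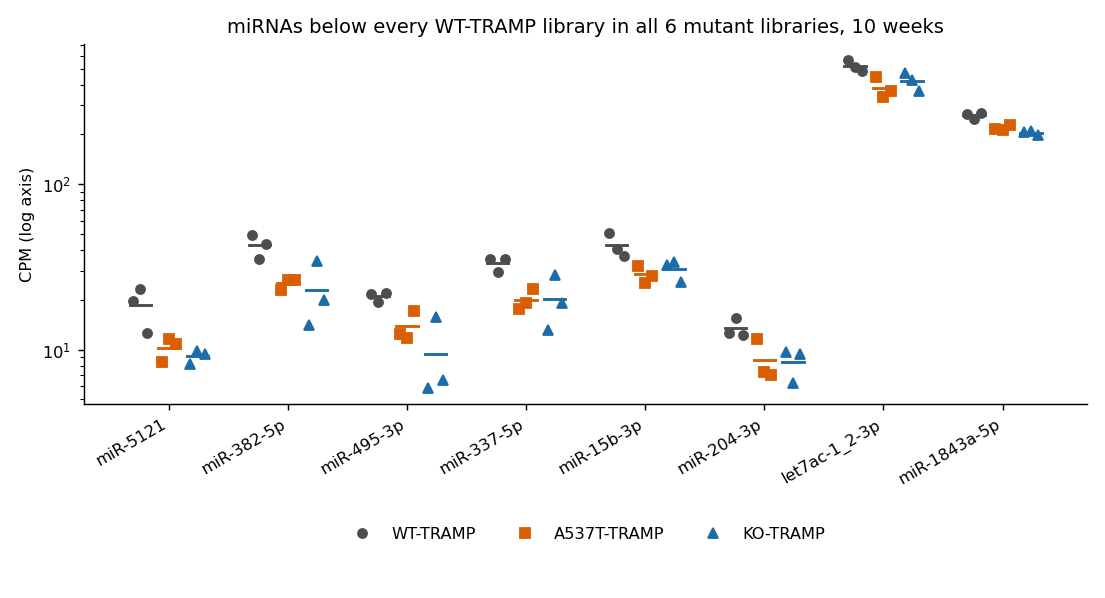
CPM (log axis) in each library for the 8 miRNAs of at least 10 CPM with the smallest p among those whose 6 mutant libraries all lay below WT-TRAMP. Points are libraries and lines are group means, and KO-TRAMP library 8 is the highest KO-TRAMP point for miR-382-5p, miR-495-3p and miR-337-5p.

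The only member higher at an unadjusted p under 0.05 was miR-542-3p of the X-linked miR-322 and miR-503 cluster, which is known to restrain the cell cycle. It had 0.220, 1.58 and 0.858 CPM in WT-TRAMP, 2.59, 1.33 and 2.15 CPM in A537T-TRAMP and 1.66, 3.14 and 3.44 CPM in KO-TRAMP. Library 5 overlapped WT-TRAMP, and the lowest WT-TRAMP value stood for 1 read. The fold change was 0.87 ± 0.29 log2 (limma adjusted p = 0.585). Of the 8 members of its cluster, 6 were above 0, with a median of 0.16, and the most abundant, miR-322-3p, differed by 0.13 ± 0.29.

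The let-7 miRNAs, which repress growth genes such as Lin28 and Ras, made up a large share of the pool. Their sum was 207915, 197930 and 162331 CPM in WT-TRAMP, 156527, 146558 and 135548 CPM in A537T-TRAMP and 164095, 148650 and 157821 CPM in KO-TRAMP. Only library 7 overlapped WT-TRAMP. Of the 21 let-7 members, 19 had a fold change below 0 (357 of all 491) and 6 were lower at an unadjusted p under 0.05 (5.91% of all members), but their median of -0.22 was near that of all members. With TMM 13 of the 21 were below 0, the median was -0.03 and 0 were lower at that p, so the lower level seen with library totals was not seen relative to the other miRNAs.

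Within the family, let-7c-5p had 55587, 48591 and 36651 CPM in WT-TRAMP, 35998, 29924 and 28959 CPM in A537T-TRAMP and 37800, 34537 and 34855 CPM in KO-TRAMP. Its fold change was -0.46 ± 0.15 log2 (limma adjusted p = 0.585) and -0.27 with TMM. The most abundant, let-7f-5p, differed by -0.34 ± 0.15 and by -0.15 with TMM. The merged 3p arm let7ac-1_2-3p, at 519 ± 40.3 CPM in WT-TRAMP and 402 ± 52.3 CPM in the mutants (SD), did not overlap between groups with library totals but did with TMM.

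Lists that mark cell types also shifted by small amounts, and 0 of their members passed an adjusted p of 0.05 in limma. All 9 members of the white blood cell list were below 0 with a median of -0.39, or -0.20 with TMM, and 3 were lower at an unadjusted p under 0.05 (5.91% of all members), or 0 with TMM (2.04%). The 3 were miR-223-3p of neutrophils (16.9 ± 4.91 CPM in WT-TRAMP and 10.4 ± 2.24 CPM in the mutants, SD), miR-146a-5p and miR-146b-5p. This list summed to 3090 to 3653 CPM in the mutants and to 3371 to 5346 CPM in WT-TRAMP. Of the 12 miRNAs listed, miR-146a-3p, miR-150-3p and miR-155-3p stayed under 1 CPM in every library.

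The stromal list went the other way. Of its 9 members 7 were above 0, with a median of 0.11, or 0.30 with TMM. Its sum ran from 77210 to 231125 CPM in the mutants, on both sides of the 93649 to 116052 CPM of WT-TRAMP. The 2 endothelial members had a median of 0.22. Endothelial miR-126a-3p, at 5629 ± 564 CPM in WT-TRAMP and 7592 ± 2405 CPM in the mutants (SD), and the 5 red cell members, with a median of 0.27, also varied widely among mutant libraries. miR-486ab-5p of red cells ran from 97.1 to 205 CPM in WT-TRAMP and from 89.9 to 519 CPM in the mutants. The part of these cell types in the differences above was not tested.

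The skeletal muscle list summed to 2179 to 30951 CPM in the mutants and 3204 to 6275 CPM in WT-TRAMP. Its main member miR-1a-3p reached 27322 CPM in KO-TRAMP library 9 and 1965 to 7788 CPM in the other mutant libraries. Its difference was 0.31 ± 0.72 log2, and -0.24 without library 9. Of the 13 muscle miRNAs listed, miR-133b-5p, miR-206-5p, miR-208b-5p and miR-499-3p had 0 reads in all 9 libraries. The list median was 0.00, and miR-1a-1-5p, the member of smallest p, differed by 0.47 ± 0.46 log2.

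Of cancer-related lists, all 18 members of the miR-17~92 group, which promotes proliferation, were below 0 with a median of -0.26, but with TMM 14 were, with a median of -0.08. miR-25-3p, its most abundant member, differed by -0.14 ± 0.15 with library totals and 0.05 with TMM. miR-363-3p differed by -0.56 ± 0.30. The 12 oncomiRs of the miR-21, miR-221/222 and miR-183 groups had a median of -0.30, or -0.12 with TMM, and miR-21a-3p, at 16.8 ± 4.21 CPM in WT-TRAMP and 11.2 ± 2.88 CPM in the mutants (SD), had the smallest p among them (limma adjusted p = 0.585).

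The p53-linked miR-34 and miR-449 list had a median of -0.02 over 6 members. Its most abundant member miR-34c-5p differed by 0.03 ± 0.36 and miR-449a-5p by -0.65 ± 0.28, the latter with 25.7 CPM in WT-TRAMP library 1 and 8.37 to 13.9 CPM in the other 8 libraries. The Sfmbt2 intronic cluster, 11 members of 71 listed, had a median of 0.23, or 0.38 with TMM, with 10 above 0. Its member of smallest p, miR-467a-5p, had 4.01 ± 0.853 CPM in WT-TRAMP and 6.69 ± 2.14 CPM in the mutants (SD). Members of this cluster are near copies of each other, so reads may be split among them.

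A list of entries that overlap tRNA or snoRNA genes, set by the names miR-1983, miR-1839, miR-1291 and miR-664, held 6 members. Their median was -0.20 against -0.19 over all members. The list is not complete. It leaves out miR-5121 and miR-1843a-5p, described above, which overlap Snord33 and Scarna3b and were lower in the mutants. Its median therefore does not stand for all such entries. miR-1839-5p, which lies in a scaRNA, differed by -0.19 ± 0.16 and by -0.00 with TMM. miR-1983, an entry of tRNA-like sequence, had 2.13 ± 1.40 CPM in WT-TRAMP and 1.28 ± 0.680 CPM in the mutants (SD), a difference of -0.44 ± 0.32. miR-429-3p, the epithelial member of smallest p, differed by -0.40 ± 0.17 and by -0.21 with TMM. miR-200b-3p, the most abundant of that list, differed by -0.26 ± 0.19.

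Some miRNAs were followed because the study discusses them for other groups, mutants without TRAMP or TRAMP mutants at 30 weeks, so the values here are from unlike groups. miR-10a-5p, a miRNA of the Hox cluster, ranged from 6359 to 9738 CPM in WT-TRAMP and from 7183 to 15780 CPM in the mutants, a difference of 0.35 ± 0.23. miR-676-5p differed by 0.17 ± 0.24, miR-669c-5p by 0.23 ± 0.41, miR-338-3p by -0.50 ± 0.52 and miR-383-5p by -0.46 ± 0.56, all with overlap between the groups. The last of them, miR-122-5p, is described with the mutant lines.

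The second question was whether KO-TRAMP and A537T-TRAMP differed from each other. In limma 0 of 491 members passed an adjusted p of 0.05 (0%), and 3 were higher (0.611%) and 6 lower (1.22%) in KO-TRAMP at an unadjusted p under 0.05, while edgeR called 0 and DESeq2 called 1. Against WT-TRAMP alone, KO-TRAMP (0%) and A537T-TRAMP (0%) gave 0 calls each in limma, with 25 and 26 at an unadjusted p under 0.05. edgeR called 0 in both, and DESeq2 called 0 for KO-TRAMP and 1 for A537T-TRAMP.

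The single DESeq2 call in each case was miR-122-5p, the main miRNA of hepatocytes. It had 2.64, 2.92 and 2.29 CPM in WT-TRAMP, 3.32, 2.19 and 2.66 CPM in KO-TRAMP and 45.2, 7.15 and 7.68 CPM in A537T-TRAMP. All 3 A537T-TRAMP libraries were above the other 6, and library 4 was far above the other A537T-TRAMP libraries. The difference KO-TRAMP minus A537T-TRAMP was -2.01 ± 0.57 log2 (SE), with an adjusted p of 0.985 in limma and 0.00812 in DESeq2. Mutants minus WT-TRAMP was 1.04 ± 0.49, or 0.63 without library 4. The liver list holds only this gene, and its other arm miR-122-3p had a read in 1 library, so it cannot show whether other liver RNA was present.

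miR-135a-5p also spread widely in A537T-TRAMP, at 7.08, 64.9 and 26.8 CPM, against 5.94, 6.69 and 7.15 CPM in WT-TRAMP and 5.23, 8.18 and 19.5 CPM in KO-TRAMP. The groups overlapped, and mutants minus WT-TRAMP was 1.09 ± 0.59 log2 (limma adjusted p = 0.585). The 2 members of the miR-135 list had a median of 0.73, or 0.90 with TMM. In KO-TRAMP, miR-30c-1-3p was at 15.8, 17.7 and 14.8 CPM against 12.0, 9.94 and 9.99 CPM in A537T-TRAMP. Its difference of 0.56 ± 0.22 log2 did not pass the adjusted threshold (limma adjusted p = 0.985), nor did those of miR-15b-5p (0.46 ± 0.27) and miR-27b-3p (0.24 ± 0.14).

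The 3 miRNAs with a mean of at least 10 CPM and the smallest p among those lower in KO-TRAMP were split within KO-TRAMP. miR-7b-5p, known from neurons and endocrine cells, had 23.5 and 20.48 CPM in libraries 7 and 9 and 278 CPM in library 8. It had 196, 131 and 241 CPM in A537T-TRAMP and 137, 173 and 410 CPM in WT-TRAMP. Neuronal miR-129-5p had 6.76 and 9.69 CPM against 72.9 CPM in library 8, with 55.8, 61.7 and 75.3 CPM in A537T-TRAMP and 31.2, 43.8 and 114 CPM in WT-TRAMP. Libraries 7 and 9 were thus below the other 7 libraries for both, whereas library 8 was not.

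For miR-409-3p of the Dlk1-Dio3 cluster, libraries 7 and 9 had 4.46 and 4.53 CPM, library 8 had 18.9 CPM and the other 6 libraries had 13.3 to 26.5 CPM. miR-138-5p, a neural miRNA named here after its values were seen, had 2.81 and 3.75 CPM in libraries 7 and 9 and 87.8 CPM in library 8, and 25 to 93.6 CPM elsewhere. In contrast miR-7a-5p, which shares the seed of miR-7b-5p but was far more abundant, had 4197, 4382 and 3251 CPM in KO-TRAMP and 4992 ± 186 CPM in WT-TRAMP (SD). The neural and neuroendocrine list had a median of -0.43 over 7 members, or -0.24 with TMM. Its sum, set by miR-7a-5p and miR-375-3p, ran from 4607 to 7135 CPM in the mutants and 5910 to 7566 CPM in WT-TRAMP.

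**Figure D4:**
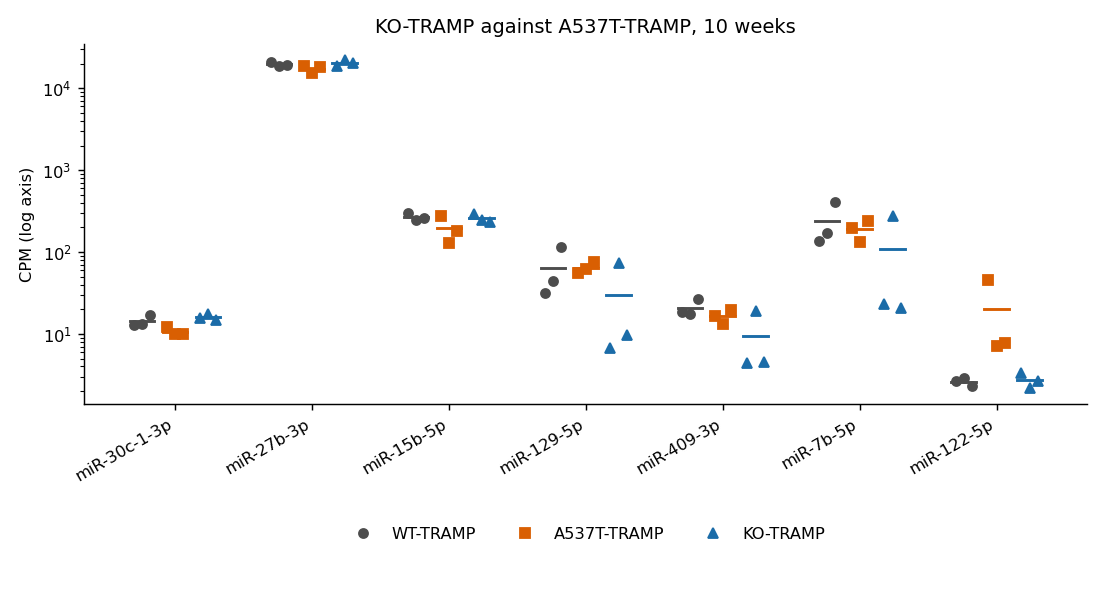
CPM (log axis) in each library for the 6 miRNAs with the smallest p for KO-TRAMP against A537T-TRAMP at a mean of at least 10 CPM, and for miR-122-5p. One KO-TRAMP point, library 8, sits with the other lines for miR-129-5p, miR-409-3p and miR-7b-5p, and the other 2 sit below all 7 remaining libraries.

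Library 8 therefore stood apart from its group. The median absolute log2 difference over members was 0.51 between libraries 7 and 8, 0.45 between 8 and 9 and 0.34 between 7 and 9, while library 8 differed by 0.22 from A537T-TRAMP library 6 and by 0.24 from WT-TRAMP library 3. Whether its label is right was not tested, since no measurement here reads the genotype, and this touches each KO-TRAMP value that includes it. Such closeness across groups was not particular to library 8. KO-TRAMP library 7 was nearest to A537T-TRAMP library 4, at 0.23. Library 4 also differed by 0.26 from WT-TRAMP library 2, against 0.41 and 0.38 from libraries 5 and 6 of its own group. The label of library 4 was not tested either. Without library 8, limma still called 0 of 491 members for mutants against WT-TRAMP, with 85 lower at an unadjusted p under 0.05 (17.3%). For KO-TRAMP against WT-TRAMP it called 28 (5.70%), all lower and 19 of them in the Dlk1-Dio3 list, whose median was then -1.02. For KO-TRAMP against A537T-TRAMP it called 6 (1.22%), all lower in KO-TRAMP, namely miR-7b-5p, miR-129-5p, miR-138-5p, miR-409-3p, miR-370-3p and miR-540-3p, the last 3 from the Dlk1-Dio3 cluster. Leaving this library out was chosen after seeing the data, and its values are those of 2 KO-TRAMP libraries.

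The third question was whether the balance of the 2 arms of a hairpin shifted. Both arms were measured for 134 precursors, and 0 passed an adjusted p of 0.05 in limma for mutants against WT-TRAMP (0%, smallest adjusted p 0.793). The arm ratio does not depend on the scaling of libraries apart from the pseudocount, and its median shift was 0.00 log2, with a range of -0.63 to 0.64. At an unadjusted p under 0.05, 3 precursors moved to the 5p arm (2.24%) and 2 to the 3p arm (1.49%), and edgeR and DESeq2 were not run on ratios.

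Of the precursors with the smallest p, miR-434 of the Dlk1-Dio3 cluster had log2 5p over 3p ratios of 0.24, 0.49 and 0.56 in WT-TRAMP. They were 1.06, 1.05 and 0.87 in A537T-TRAMP and 1.16, 0.71 and 0.63 in KO-TRAMP, above all WT-TRAMP values. Of the 134 precursors no other had all mutant ratios above WT-TRAMP, and only miR-378a had all of them below. The shift of miR-434 was 0.48 ± 0.19 (SE). miR-431, from the same cluster, shifted by -0.63 ± 0.21 and the epithelial and sensory miR-183 by -0.48 ± 0.19, both with overlap, and the 3p arms of these 2 were rare at 1.06 and 3.49 CPM.

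The last question was whether the same contrast looked alike at 30 weeks or without TRAMP. The difference between the 30-week and the 10-week effect in TRAMP mice, fitted over 18 libraries in limma, passed an adjusted p of 0.05 for 8 of 514 miRNAs (1.56%). At an unadjusted p under 0.05, 67 were higher (13%) and 9 lower (1.75%). All 8 calls lie within the Dlk1-Dio3 cluster, 7 of them on the list, with miR-1193-3p as the 8th. With TMM 0 passed the adjusted threshold, the 8 had differences of 0.59 to 1.21 log2 and adjusted p of 0.114 to 0.255, and 36 of 514 miRNAs were higher at an unadjusted p under 0.05 (7.00%). DESeq2 with its own size factors, which also centre the bulk of the miRNAs, called 12 for the age difference, 9 higher and 3 lower. The 9 higher were all on the Dlk1-Dio3 list, and 6 of the 12 were among the 8 called by limma. The limma calls lay near the threshold, at adjusted p of 0.0418 to 0.0438, and changed with the library left out. Leaving out any 1 of libraries 1, 2, 3, 5, 9, 10, 11, 12, 13, 14, 17 and 18 left 0 calls. Without library 4, 6 or 15 there were 9, 8 or 6 calls, of which 7, 7 and 6 were among the 8. Leaving out library 7 gave 5, of which 4 were among the 8. Leaving out library 8 or 16 gave 35 or 42, with all 8 among them.

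Over the 53 miRNAs of the list tested, the median age difference was 1.11 log2 against 0.26 for all miRNAs, or 0.78 against -0.06 with TMM. Of the 53, 53 were above 0 and 33 were higher at an unadjusted p under 0.05, or 28 with TMM. The age difference subtracts the effect at the younger age, where the list already had a median of -0.56. These medians and counts are therefore not independent of that lower level. Only the effect at 30 weeks, given next, comes from separate libraries. At 30 weeks, mutants minus WT-TRAMP had a median of 0.53 over 49 miRNAs of the list against 0.10 over all, and 25 of the 49 were higher at an unadjusted p under 0.05, compared with 58 of all 514 (11.3%).

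For miR-379-3p the levels were 7.92, 7.05 and 7.43 CPM in WT-TRAMP at 10 weeks and 3.41, 4.65 and 3.55 CPM at 30 weeks. The mutants had 3.70 to 6.85 CPM at 10 weeks and 5.10 to 10.6 CPM at 30 weeks. WT-TRAMP was thus the higher group at 10 weeks and the lower one at 30 weeks, with no overlap at either age. The age difference was 1.34 ± 0.27 log2 (limma adjusted p = 0.0418), and 1.02 with TMM (adjusted p = 0.114).

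miR-337-5p followed the same pattern. At 30 weeks it had 9.29, 13.9 and 12.4 CPM in WT-TRAMP, 17.4, 23.9 and 17 CPM in A537T-TRAMP and 18.7, 21.6 and 19.8 CPM in KO-TRAMP, with no overlap. Its age difference was 1.43 ± 0.30 log2 (limma adjusted p = 0.0418). For miR-1193-3p, at 1.70 to 1.98 CPM in WT-TRAMP and 0.849 to 1.79 CPM in the mutants at 10 weeks, it was 1.16 ± 0.24 (limma adjusted p = 0.0418). At these levels the value of 1 read at 10 weeks was up to 0.220 CPM.

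**Figure D5:**
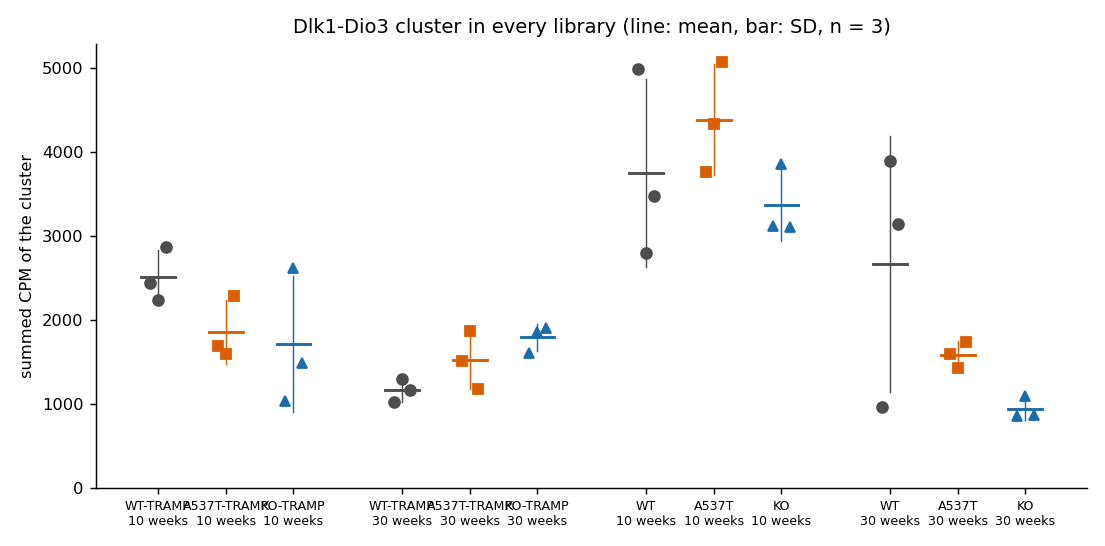
Summed CPM of the 97 listed Dlk1-Dio3 miRNAs in each library of the 12 groups, with group means and SD. WT-TRAMP lies at 2234 to 2864 CPM at 10 weeks and at 1026 to 1292 CPM at 30 weeks, while the TRAMP mutants span 1035 to 2615 CPM and 1183 to 1906 CPM.

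The summed level of the cluster in WT-TRAMP was 2234 to 2864 CPM at 10 weeks and 1026 to 1292 CPM at 30 weeks, with no overlap, and the mutants overlapped between ages. Without TRAMP the mutants minus WT difference of the list had a median of 0.18 over 65 miRNAs at 10 weeks, where 1 of the 65 was lower at an unadjusted p under 0.05 compared with 35 of 516 overall (6.78%). At 30 weeks without TRAMP it had a median of -0.89 over 55, where 21 were lower compared with 43 of 495 overall (8.69%), and the WT libraries themselves ran from 961 to 3897 CPM.

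The difference between the TRAMP and the no-TRAMP effect at 10 weeks passed an adjusted p of 0.05 for 0 of 509 miRNAs in limma (0%, smallest adjusted p 0.304). At an unadjusted p under 0.05, 16 were higher (3.14%) and 36 lower (7.07%) in the TRAMP setting, edgeR with TMM called 0 and DESeq2 with its own size factors called 6. With TMM the unadjusted split was 38 higher and 8 lower. The miRNA of at least 10 CPM with the smallest p was miR-495-3p. Without TRAMP it had 49.4, 18.2 and 17.3 CPM in WT, 39.9, 56.4 and 57.7 CPM in A537T and 26.4, 35.7 and 27 CPM in KO, and the difference of effects was -1.50 ± 0.46 log2 (limma adjusted p = 0.396). Without WT library 28, the highest of the WT libraries, it was -1.98 (limma adjusted p = 0.0314). Leaving out this library was not planned, and no other left-out library brought miR-495-3p past the adjusted threshold. Of the libraries without TRAMP at 10 weeks, A537T library 35 held 655455 reads, the fewest of the series.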

How the data were processed

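Small RNA libraries (TruSeq Small RNA kit, NovaSeq) were made from ventral and lateral prostate lobes. The authors merged reads and removed adapters in BBMerge and counted miRNAs with mirDeep2 against GRCm38 and miRBase, summing identical sequences. The deposited values are a signal in which counts were divided by DESeq2 size factors. The deposited comparison tables, with log2 fold changes and s-values of the authors' own tests, were not used.

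In each column the values were whole multiples of the smallest step, and this gave back whole reads for 100% of values (tolerance 0.01). These counts were divided by library totals to join the tables, and the 12 shared control columns held the same reads in both tables. The test was limma 3.58.1 with a variance trend on log2(CPM + 1) over 3 groups, two-sided, with Benjamini-Hochberg adjustment over all members and a threshold of 0.05. Fold changes on this scale understate changes of low miRNAs. The count test, edgeR 4.0.16 quasi-likelihood, called 0 miRNAs and DESeq2 1.42.0 called 0. On simulated reads with 200 of 491 miRNAs changed 4-fold, limma recovered 93.0% of them for mutants against WT-TRAMP. The simulated reads were divided by the known depth of each library, so this share does not include the effect of the choice of scaling. It also says nothing of calls among unchanged miRNAs. In the real libraries 400 members differed by under 0.5 log2 and 4 by more than 1 log2. The simulated share therefore does not tell how many of such small or few differences would be called.

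Named were the 5 most abundant miRNAs, up to 8 per direction with the smallest p, a mean of at least 10 CPM and no overlap, 3 per direction for KO-TRAMP against A537T-TRAMP, 3 arm ratios, up to 3 per interaction, the most abundant and smallest-p member of each list, and 6 miRNAs the study discusses. The members and lists were chosen with earlier results of these data known. The study describes 3 mice of each line and biological replicates, and the columns tie no library to a mouse. Reads carried no molecular identifiers, so copies of one molecule could not be set apart.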

Additional observations from a re-analysis of the deposited data

Results flagged for a closer look

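Of 49 named miRNAs tested for a library far from the others among the 6 mutant libraries, 4 had one by Dixon's criterion, and chance gives about 1 in 20 such groups. The highest value of miR-122-5p was 45.2 CPM in A537T-TRAMP library 4. The highest value of miR-135a-5p was 64.9 CPM in A537T-TRAMP library 5. The highest value of miR-1a-3p was 27322 CPM in KO-TRAMP library 9. The lowest value of miR-21a-3p was 5.82 CPM in A537T-TRAMP library 5, and without that library the fold change was -0.41 in place of -0.56.

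For 8 miRNAs the mutant effect at 30 weeks in TRAMP mice exceeded that at 10 weeks by a test of the difference (limma, adjusted p of 0.0418 to 0.0438). The difference was 1.34 log2 for miR-379-3p, 1.16 for miR-1193-3p, 1.43 for miR-337-5p and 1.55 for miR-382-3p. It was 1.29 for miR-329-3p, 1.23 for miR-411-3p, 1.21 for miR-299a-3p and 0.96 for miR-411-5p. With TMM these 8 differences were above 0 and did not pass the adjusted threshold, while 6 of them passed in DESeq2 with its own size factors. The cause was not tested.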

How the results depend on the processing

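Mutants against WT-TRAMP gave 0 adjusted calls under every alternative run, including each left-out library, and the median of the Dlk1-Dio3 list ran from -0.76 to -0.46 with libraries left out. Leaving out 1 library gave 0 to 6 calls for KO-TRAMP against A537T-TRAMP, 0 to 28 for KO-TRAMP against WT-TRAMP, 0 for A537T-TRAMP against WT-TRAMP and for arm ratios, 0 to 42 for the age difference and 0 to 2 for the TRAMP difference. DESeq2 gave 1 call for KO-TRAMP against A537T-TRAMP and 1 for A537T-TRAMP against WT-TRAMP, with either size factor, and 6 with its own size factors for the TRAMP difference. The age difference gave 0 calls with TMM, median-of-ratios scaling, a mean of at least 10 CPM, or edgeR with TMM, and 12 calls with DESeq2 and its own size factors, 9 of them on the Dlk1-Dio3 list. The Dlk1-Dio3 median of that difference was 0.69 with a pseudocount of 5 and 0.95 to 1.32 with libraries left out. The causes were not tested.

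Some small fold changes of mutants against WT-TRAMP turned above 0 with TMM, median-of-ratios, edgeR with TMM and DESeq2 with its own size factors. They were 0.047, 0.052, 0.063 and 0.070 for miR-25-3p, 0.097, 0.10, 0.080 and 0.090 for miR-26a-5p, 0.13, 0.13, 0.13 and 0.14 for miR-27b-3p, and 0.058, 0.063, 0.035 and 0.037 for miR-30c-1-3p. miR-1839-5p gave 0.0021 with median-of-ratios and 0.0052 with DESeq2. With single libraries left out, signs also turned within the ranges -0.24 (without library 9) to 0.67 for miR-1a-3p, -0.18 to 0.0028 (without library 3) for miR-30c-1-3p, -0.84 to 0.010 (without library 3) for miR-383-5p, and -0.17 to 0.26 for miR-34c-5p, which was below 0 without libraries 2, 6, 8 or 9. No paired analysis was possible because the columns carry library numbers and not the replicate numbers of the labels. With 3 WT-TRAMP libraries, the median interval half-width was 0.58 log2, which is not adjusted for the number of members tested. Larger differences also missed the adjusted threshold, such as -0.90 for miR-495-3p and -0.85 for miR-382-5p (limma adjusted p = 0.585 for each). The absence of calls therefore does not exclude differences above this half-width.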
